A study of Mus musculus with 6 samples.

Results

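The hedgehog pathway in cultured mouse cerebellar granule neurons (CGNs) was followed through 9 genes of 55341 in the count tables. They were taken from a fixed list of receptor, co-receptor, transducer, effector and target genes: Ptch1, Smo, Gli1, Gli2, Gli3, Sufu, Hhip, Boc and Cdon. RNA had been poly(A)-selected from 6 libraries, 3 of CGNs given the vehicle DMSO and 3 of CGNs given GSK-126, a small molecule inhibitor of EZH2, which places the repressive mark H3K27me3 on histone H3. Agent and replicate number are in the labels, whereas dose, day, strain and age are not. The study's methods describe granule neuron precursors from pooled cerebella of litters of early postnatal CD1-IGS mice of both sexes, enriched on a Percoll gradient. Cytosine arabinoside, which blocks dividing non-neuronal cells, was given to the cultures in general, so both groups share it. The comparison asks how the genes of this pathway respond when EZH2 is inhibited in newly formed neurons.

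Sonic hedgehog, released by Purkinje neurons, is the main mitogen of granule neuron precursors. Without ligand, the receptor PTCH1 holds the membrane protein SMO inactive at the primary cilium. Ligand binding frees SMO, which releases the GLI transcription factors from SUFU and from processing into repressors. BOC and CDON are co-receptors that help ligand bind PTCH1, and HHIP is a membrane protein that sequesters the ligand. PTCH1, HHIP and GLI1 are themselves transcribed in response to the pathway, so their transcripts are commonly read as its output. Bergmann glia and astrocytes also carry pathway components.

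All 9 genes are single protein-coding loci in GRCm38 (GENCODE M21). Ptch1 lies on chromosome 13 from 63508328 to 63573598, Hhip on chromosome 8 from 79965851 to 80058006, Boc on chromosome 16 from 44485049 to 44558897 and Cdon on chromosome 9 from 35421128 to 35507652. Smo lies on chromosome 6 from 29735503 to 29761365 and Sufu on chromosome 19 from 46396896 to 46488804. Gli1 lies on chromosome 10 from 127329882 to 127341974, Gli2 on chromosome 1 from 118834132 to 119053619 and Gli3 on chromosome 13 from 15463235 to 15730026. Exons of genes on the opposite strand overlap 6.55% of the exon bases of Gli1, 1.96% of those of Gli3 and 1.93% of those of Hhip. Because the count was not stated to use strand, reads from these stretches could belong to either gene.

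EZH2 and its partners tend to occupy promoters rich in CpG, so the sequence before the start site was examined for this feature. RefSeq (GRCm38.p6) gave a promoter window for 7 of the 9 members, all except Gli1 and Boc. In the 250 bases before the start, Ptch1 held 41 CpG, Gli3 34, Hhip 28, Gli2 22, Smo 15, Sufu 8 and Cdon 1. At least 20 CpG were found in 4 of these 7 windows, against 17.9% of 32817 windows of all genes, whose median was 6. The windows of Ptch1 (chr13:63565736-63565985, minus strand), Hhip (chr8:80058009-80058258, minus strand), Gli2 (chr1:119053620-119053869, minus strand), Smo (chr6:29735247-29735496, plus strand) and Sufu (chr19:46396646-46396895, plus strand) are printed 5′ to 3′ with each CpG in capitals, because these are the 5 members whose window touches no annotated exon. The RefSeq windows of Ptch1, Gli3 and Cdon lie inside the longer GENCODE loci, so their CpG counts are not those before the first annotated start.
Ptch1: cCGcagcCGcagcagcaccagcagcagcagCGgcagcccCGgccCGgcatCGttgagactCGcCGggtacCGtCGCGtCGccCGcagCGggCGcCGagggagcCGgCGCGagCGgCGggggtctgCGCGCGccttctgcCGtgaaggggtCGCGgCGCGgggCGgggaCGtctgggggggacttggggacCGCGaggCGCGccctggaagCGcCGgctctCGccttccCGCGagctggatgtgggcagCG
Hhip: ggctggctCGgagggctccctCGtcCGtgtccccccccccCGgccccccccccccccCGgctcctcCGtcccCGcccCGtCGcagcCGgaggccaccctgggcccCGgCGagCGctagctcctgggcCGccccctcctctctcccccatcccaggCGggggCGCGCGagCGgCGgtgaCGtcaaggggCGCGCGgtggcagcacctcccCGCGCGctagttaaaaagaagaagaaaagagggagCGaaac
Gli2: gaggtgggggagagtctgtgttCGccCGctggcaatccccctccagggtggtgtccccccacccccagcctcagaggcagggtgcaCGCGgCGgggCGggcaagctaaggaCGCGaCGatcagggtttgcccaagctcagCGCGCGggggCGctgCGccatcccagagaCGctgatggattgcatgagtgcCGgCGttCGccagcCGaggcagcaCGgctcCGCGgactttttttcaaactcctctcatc
Smo: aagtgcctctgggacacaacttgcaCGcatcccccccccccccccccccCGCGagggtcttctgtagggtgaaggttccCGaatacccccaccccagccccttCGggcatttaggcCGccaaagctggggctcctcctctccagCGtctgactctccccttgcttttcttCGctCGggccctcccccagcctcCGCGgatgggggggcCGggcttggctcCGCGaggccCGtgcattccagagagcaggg
Sufu: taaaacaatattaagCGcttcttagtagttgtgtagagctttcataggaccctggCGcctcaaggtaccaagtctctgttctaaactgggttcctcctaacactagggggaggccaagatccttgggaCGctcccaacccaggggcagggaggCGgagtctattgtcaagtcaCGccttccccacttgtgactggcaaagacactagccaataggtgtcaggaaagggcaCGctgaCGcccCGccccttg
Of all windows, 98.9% had fewer CpG than that of Ptch1 and 57% had fewer than that of Sufu. The GLI binding motif GACCACCCA (TGGGTGGTC on the other strand) was in 0 of the 7 member windows and in 0.225% of all windows. Its inner letters CCACCCA, which the longer motif contains, were also in 0 of 7, and in 8.11% of all windows. This says only that the letters are not in these 250 bases.

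The libraries held from 8058760 to 12047837 counts over genes, and 3 counts equalled 0.249 to 0.372 CPM (counts divided by TMM-adjusted library totals). Of the 9 members, 8 passed the filter on low counts and Gli1 did not. Replicate 2 stood apart in both groups, with low glial and high granule neuron transcripts as given below. The summed CPM of 12 granule neuron markers ran from 5164 to 7102 with DMSO and from 3619 to 5754 with GSK-126, and it was led by Zic1, so the labelled cell type was present. The cultures also held glial and fibroblast transcripts, led by Gfap and Col1a1. Atoh1, the factor that defines dividing granule neuron precursors, was counted 0, 0 and 6 times in the DMSO libraries and 3, 0 and 0 times in the GSK-126 libraries.

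None of the hedgehog members passed the test for a response to GSK-126. With the replicate number as a block, 0 of 8 were called at an adjusted p under 0.05 (quasi-likelihood F test of edgeR, Benjamini-Hochberg over 16343 genes), where 3.65% of all genes tested were called, 2.23% higher and 1.42% lower. DESeq2 and limma with the same block also called 0, although DESeq2 gave no adjusted p for Hhip. At an unadjusted p under 0.05 there were 2, Ptch1 and Boc, both with less transcript under GSK-126, and 16.7% of all genes tested lay below that p. Without the block 0 members had an unadjusted p under 0.05, against 6.0% of all genes. The log2 fold change was positive for 4 members and negative for 4, with a median of 0.01 where all genes had -0.00. In 5 of 8 members the 3 pairs of libraries went the same way, against 39.0% of all genes, and the CPM of the 2 groups overlapped in every one of the 8, whereas 10.9% of all genes had groups that did not overlap. Fewer cells of a type and less RNA per cell cannot be told apart in such bulk libraries.

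**Figure D1:**
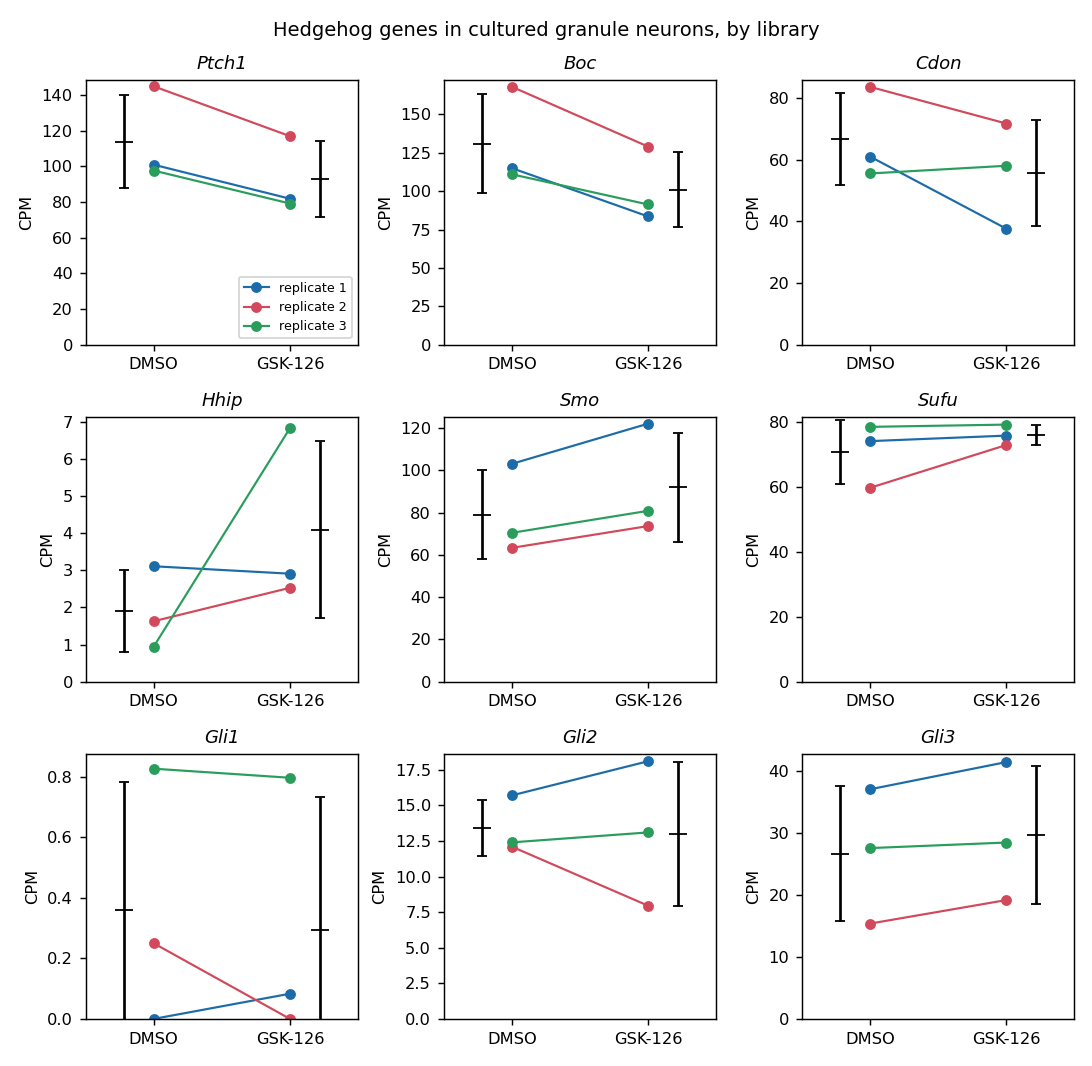
CPM (y axis, from 0) of the 9 hedgehog genes in each library, with lines joining DMSO and GSK-126 libraries of the same replicate number and black bars giving the group mean ± SD (n = 3). The Ptch1 and Boc lines slope down and the Smo, Gli3 and Sufu lines slope up in 3 of 3 pairs. The 2 groups overlap in each of the 9 panels.

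The receptor Ptch1 had 101, 145 and 97.7 CPM in DMSO replicates 1, 2 and 3 and 81.9, 117 and 79.2 CPM in the GSK-126 libraries. Replicate 2 was highest in both groups and the groups overlapped. Within pairs the log2 ratio of GSK-126 to DMSO was -0.30, -0.30 and -0.30, so the 3 pairs were nearly identical. The fitted level under GSK-126 was 0.811 times that with DMSO (95% interval 0.692 to 0.95, log2 fold change -0.30, SE 0.104), with an edgeR adjusted p of 0.164 (0.841 without the block). The interval of this gene taken singly lay below 1, and the p adjusted over all genes did not pass. With the block, leaving out any 1 replicate number kept the log2 fold change between -0.30 and -0.29, and leaving out 1 library without the block moved it between -0.51 and -0.09.

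The ligand antagonist Hhip was scarce, with 27, 13 and 8 counts in the DMSO libraries and 35, 21 and 60 with GSK-126. These counts equalled 3.11, 1.63 and 0.945 CPM with DMSO and 2.91, 2.53 and 6.83 CPM with GSK-126. GSK-126 replicate 3 was the high library, replicate 1 went slightly the other way, and the groups overlapped. The log2 fold change was 1.04 (SE 0.544, 95% interval -0.15 to 2.24, edgeR adjusted p 0.377 with the block and 0.825 without). Without replicate 3 it was 0.24 and without replicate 1 it was 1.75, so the fitted size moved with the pairs used.

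The co-receptor Boc was the most abundant member per exon length. It had 115, 168 and 111 CPM with DMSO and 83.5, 129 and 91.3 CPM with GSK-126. All 3 pairs were lower under GSK-126, by log2 ratios of -0.46, -0.38 and -0.28, and replicate 2 was again the highest of each group. The fitted level was 0.772 times that with DMSO (95% interval 0.657 to 0.906, log2 fold change -0.37, SE 0.106). Its edgeR adjusted p of 0.085 was the lowest of the members and did not pass (0.839 without the block), and over the 14 alternative fits the adjusted p of Boc ran from 0.062 to 1.

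Cdon, the other co-receptor, had 61, 83.6 and 55.5 CPM with DMSO and 37.6, 71.7 and 58 CPM with GSK-126. Its pairs had log2 ratios of -0.70, -0.22 and 0.06, so GSK-126 replicate 1 was low, and replicate 3 showed no such difference. The log2 fold change was -0.29 (SE 0.147, 95% interval -0.61 to 0.04, edgeR adjusted p 0.369, and 0.881 without the block). It ran from -0.46 to -0.08 when 1 replicate number was left out.

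Smo, the membrane protein that carries the signal inward, had 103, 63.3 and 70.4 CPM with DMSO and 122, 73.6 and 80.8 CPM with GSK-126. Replicate 1 was the highest of each group. Each pair was slightly higher under GSK-126, with log2 ratios of 0.24, 0.22 and 0.20. The fitted level was 1.16 times that with DMSO (95% interval 0.99 to 1.37, log2 fold change 0.22, SE 0.106, edgeR adjusted p 0.337, and 0.894 without the block). Smo thus lay on the opposite side of 0 from Ptch1 and Boc in 3 of 3 pairs, although none of these 3 genes passed the test.

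Sufu, which binds GLI proteins and holds them inactive, showed small differences only. It had 74.2, 59.8 and 78.6 CPM with DMSO and 75.9, 73 and 79.3 CPM with GSK-126. The log2 fold change was 0.11 ± 0.115 (SE; edgeR with the block, adjusted p 0.705, and 0.919 without the block). The 95% interval of the ratio ran from 0.905 to 1.29, so larger differences in either direction lay outside it.

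The 3 GLI genes carry the signal into the nucleus, and all were scarcer per exon length than Smo and Sufu. Gli1, an activator whose transcription follows pathway activity, was counted 0, 2 and 7 times in the DMSO libraries and 1, 0 and 7 times in the GSK-126 libraries. In 4 of 6 libraries it was below the floor of 3 counts, and both libraries above it belonged to replicate 3. No fold is given for Gli1, which was tested in the unfiltered fit alone (adjusted p 0.984, edgeR). Small differences in Gli1 could therefore not be detected at this depth, and no detection limit was computed. Gli2, the main activator downstream of SMO, had 15.7, 12.1 and 12.4 CPM with DMSO and 18.1, 7.95 and 13.1 CPM with GSK-126. Its pairs went different ways, with log2 ratios of 0.20, -0.60 and 0.08. The log2 fold change was -0.09 (SE 0.216, 95% interval -0.56 to 0.39, edgeR adjusted p 0.896, and 0.99 without the block), and it turned to 0.16 without replicate 2. Gli3, which acts mostly as a repressor when SMO is silent, had 37.1, 15.4 and 27.6 CPM with DMSO and 41.5, 19.2 and 28.5 CPM with GSK-126. Replicate 2 was low in both groups. The log2 fold change was 0.17 (SE 0.147, 95% interval -0.16 to 0.49, edgeR adjusted p 0.638, and 0.955 without the block).

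**Figure D2:**
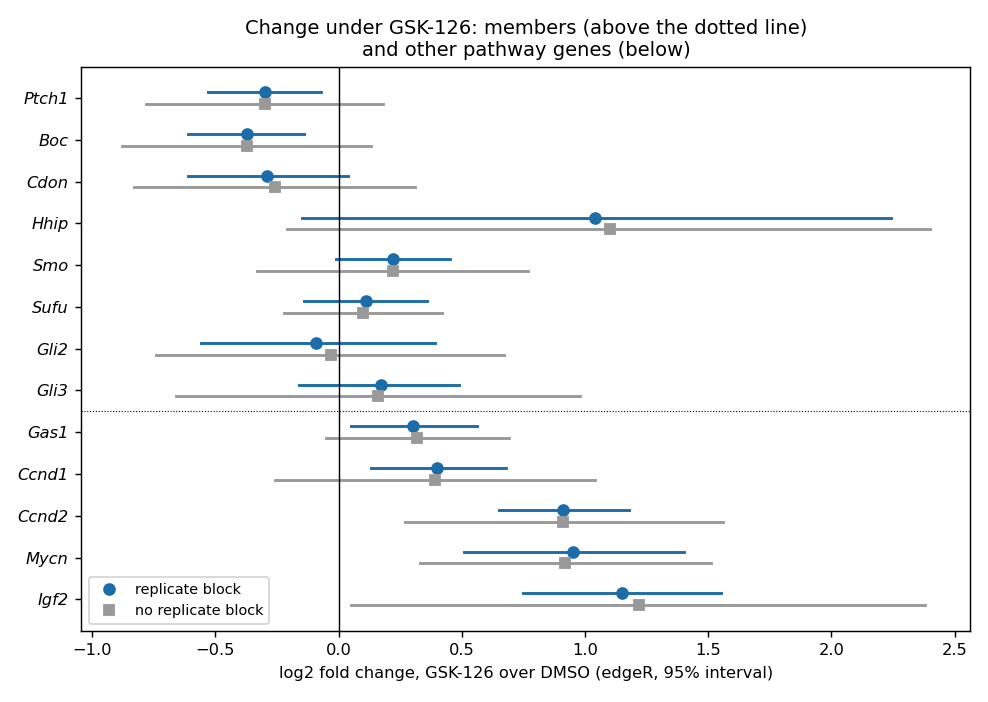
Log2 fold change of GSK-126 over DMSO (x axis) with 95% intervals from edgeR, with the replicate number as a block (blue circles) and without it (grey squares), for 8 members and 5 other pathway genes. The intervals with the block exclude 0 for Ptch1 and Boc alone among the members, and for all 5 genes under the dotted line, of which Ccnd2, Mycn and Igf2 passed the adjusted threshold.

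Levels between genes were compared as CPM per kilobase of exons. With DMSO, Boc had 29.5 ± 7.21, Smo 14 ± 3.76, Sufu 9.21 ± 1.28, Cdon 8.65 ± 1.93, Ptch1 8.07 ± 1.84, Gli3 2.79 ± 1.14, Gli2 1.95 ± 0.288, Hhip 0.209 ± 0.122 and Gli1 0.0719 ± 0.0849 CPM per kilobase (SD, n = 3). The ranges of Sufu, Cdon and Ptch1 overlapped from one to the next, as did those of Gli3 and Gli2 and those of Hhip and Gli1. Boc, Smo and the group from Sufu to Ptch1 did not overlap with the next lower gene. The order of the means was the same with GSK-126, at 22.8 ± 5.51 for Boc, 16.4 ± 4.6 for Smo, 9.89 ± 0.407 for Sufu, 7.23 ± 2.23 for Cdon and 6.54 ± 1.5 for Ptch1. There the ranges of Boc and Smo overlapped and those of Sufu and Cdon did not. Hhip and Gli1 were the lowest members in both groups.

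**Figure D3:**
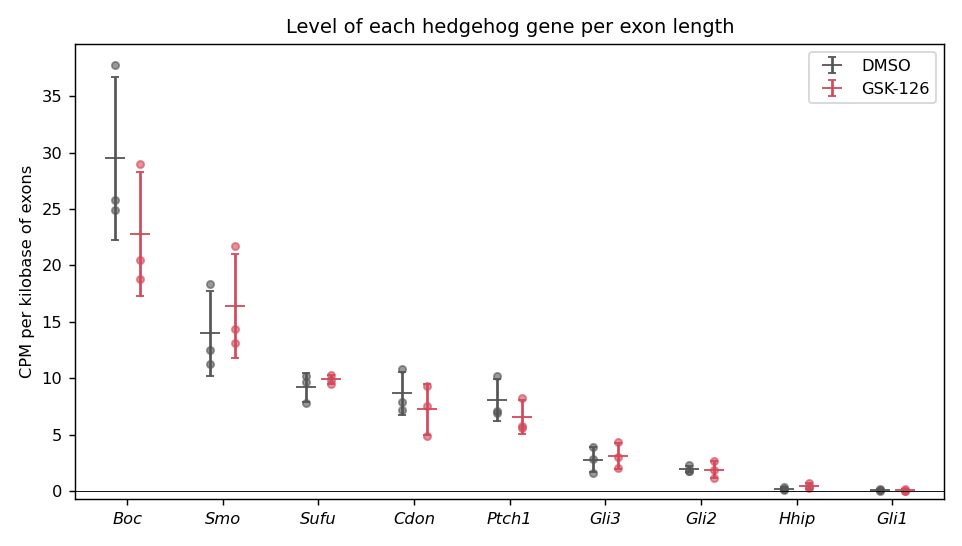
CPM per kilobase of exons (y axis, linear) of the 9 genes in DMSO (grey) and GSK-126 (red) libraries, with 1 point per library and bars for the mean ± SD (n = 3). Boc is highest at 29.5 with DMSO and 22.8 with GSK-126, and Hhip and Gli1 lie near 0.

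More members were called between replicate numbers than between treatments. A test of the replicate terms, added after the data had been examined, called 4 of 8 members (edgeR adjusted p 0.0189 for Ptch1, 0.00791 for Smo, 0.00455 for Gli3 and 0.0155 for Boc), and 11.6% of all genes tested. With treatment in the model, replicate 2 lay above replicate 1 by 0.52 for Ptch1 and 0.59 for Boc on the log2 scale. It lay below replicate 1 for Smo (-0.71) and Gli3 (-1.19). Cdon (0.68, edgeR adjusted p 0.0638) and Gli2 (-0.76, 0.187) did not pass, and neither did Sufu (0.473) or Hhip (0.739). Each replicate number is a pair of libraries here, and the numbers have no order.

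Cell type markers also differed between the replicate numbers. The summed CPM of 12 markers of astrocytes and Bergmann glia was 7799, 2652 and 4915 with DMSO and 8120, 2584 and 4237 with GSK-126. It was thus lowest in replicate 2 and highest in replicate 1, as Smo, Gli2 and Gli3 were in both groups. All 12 of these markers were tested and 11 were called for the replicate number by edgeR, against 11.6% of all genes. The same test called 7 of 12 granule neuron, 8 of 9 microglial and 6 of 10 oligodendrocyte lineage markers. It called 1 of 14 precursor and proliferation markers and 0 of 7 GABAergic interneuron markers. The granule neuron sum was 5164, 7102 and 5569 with DMSO and 3619, 5754 and 4251 with GSK-126, highest in replicate 2, as Ptch1, Boc and Cdon were. This sum was also lower under GSK-126 in 3 of 3 pairs, and 7 of its 12 markers were called lower and 0 higher, against 1.42% and 2.23% of all genes. Without the block 0 of these 12 markers were called by edgeR, and 5 had an unadjusted p under 0.05, against 6.0% of all genes. The fibroblast sum ran from 6748 to 8778 with DMSO and from 8804 to 9772 with GSK-126, so its groups did not overlap. Collagen genes carried this sum, and of its 6 markers Col1a1 was called higher (0.46, edgeR adjusted p 0.0359). Slc6a13, a transporter of meningeal cells, was called lower (-1.10, 0.0153). Of the 12 astrocyte and Bergmann glia markers, Gdf10 was called higher under GSK-126 (0.94, edgeR adjusted p 0.0459) and 0 lower. For both lists the shares of all genes were 2.23% higher and 1.42% lower. An unadjusted p under 0.05 by edgeR was found for 5 of these 12 glial markers, against 16.7% of all genes. The part of cell composition in the values of Ptch1, Boc and Smo was not tested. Nor was it tested for Ccnd2, Mycn and Igf2, the called pathway genes described below.

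**Figure D4:**
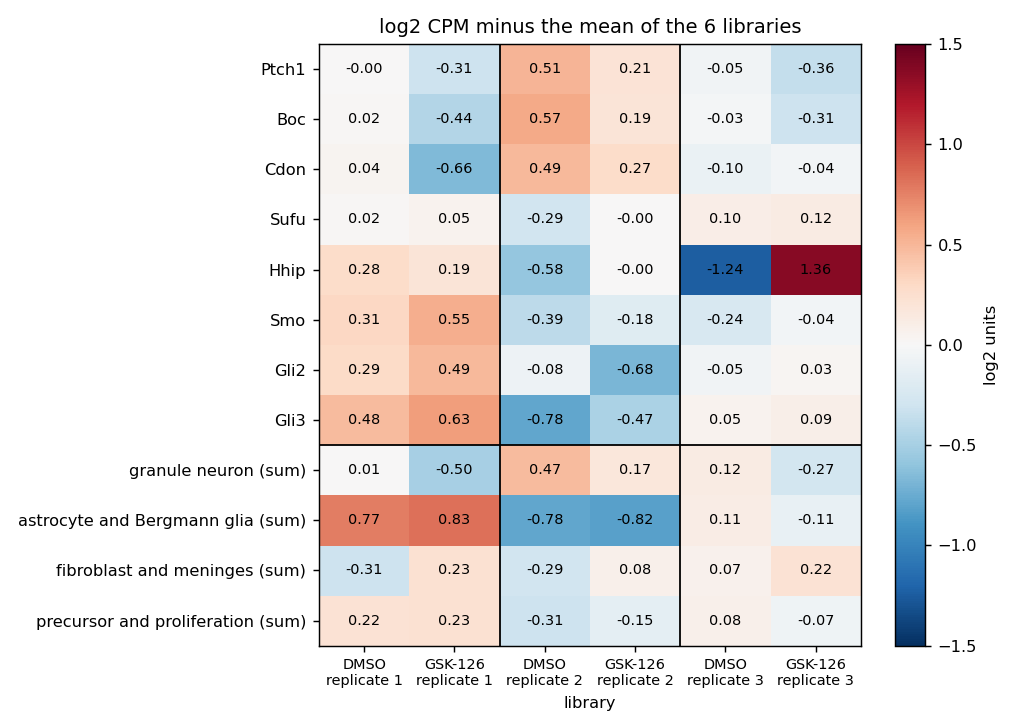
Log2 CPM of each library minus the mean of the 6 libraries for 8 members and for 4 summed marker lists, with libraries on the x axis ordered by replicate number and colour and printed values in log2 units. Ptch1, Boc and Cdon are highest in DMSO replicate 2 (0.51, 0.57 and 0.49), as is the granule neuron sum (0.47), whereas Gli3 (-0.78) and the glial sum (-0.78) are low there.

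Among the remaining lists, the 15 markers of precursors and proliferation summed to 479 to 696 CPM with DMSO and 536 to 698 CPM with GSK-126. By edgeR 0 of 14 tested were called and 0 had an unadjusted p under 0.05, against 3.65% and 16.7% of all genes. The 10 oligodendrocyte lineage markers ran from 525 to 797 and from 585 to 925 CPM, and the 10 microglial markers from 298 to 559 and from 361 to 790 CPM, with Trem2 listed at 0 throughout. The 8 endothelial and mural markers ran from 167 to 241 and from 220 to 322 CPM. These 3 sums were higher under GSK-126 in 3 of 3 pairs. Of their tested markers 1 of 10, 2 of 9 and 1 of 6 were called higher and 0 lower, against 2.23% and 1.42% of all genes. The 5 Purkinje neuron markers, the cells that make the ligand in vivo, summed to 13 to 17.5 and 11.5 to 27.6 CPM, with Skor2 at 0 in every library. The 7 GABAergic interneuron markers ran from 251 to 352 and from 202 to 253 CPM. All 7 were tested, and 2 were called lower and 0 higher, against the same shares of 1.42% and 2.23%.

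A list of 50 other hedgehog genes was read from the same fit, and 44 were tested. Of these, 3 were called higher under GSK-126 and 0 lower, against 2.23% and 1.42% of all genes, and the median log2 fold change was 0.03. With the block 14 of 44 had an unadjusted p under 0.05 by edgeR, against 16.7% of all genes. Without the block 0 were called by edgeR and 5 had an unadjusted p under 0.05, against 6.0% of all genes. The ligands were near the floor of detection. The DMSO libraries held 6, 9 and 3 counts of Shh and the GSK-126 libraries 5, 4 and 4, and 28.4% of its exon bases overlap genes on the opposite strand. For Ihh these counts were 0, 6 and 1 against 0, 1 and 3, and for Dhh 0 in each DMSO library against 0, 1 and 2.

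The 3 called genes were all on the list of 10 targets, all tested, where 2.23% of all genes were called higher. Without the block 0 of these 10 were called by edgeR. An unadjusted p under 0.05, in either direction, was found for 7 with the block and 3 without. The shares of all genes were 16.7% and 6.0%. The list was chosen with earlier results of these data known. Ccnd2, a D-type cyclin that drives precursor division, rose from 187, 186 and 314 CPM to 436, 296 and 563 CPM. All 3 pairs were higher, and only GSK-126 replicate 2 fell within the DMSO range. Its log2 fold change was 0.91 ± 0.12 (SE; edgeR with the block, adjusted p 0.00344, and 0.806 without the block). Exons of genes on the opposite strand overlap 7.87% of its exon bases. Mycn, the MYC family factor that hedgehog induces in precursors, rose from 9.23, 14.4 and 17.8 CPM to 24.3, 30.1 and 24 CPM without overlap between groups. Its log2 fold change of 0.95 ± 0.204 (SE; edgeR with the block, adjusted p 0.0282, and 0.792 without the block) was no longer called without replicate 1 (0.74, adjusted p 0.0631) or without replicate 2 (0.91, adjusted p 0.12). Igf2, an imprinted growth factor gene, rose from 14.5, 6 and 15.8 CPM to 37.1, 10.2 and 37.1 CPM. Its log2 fold change was 1.15 ± 0.182 (SE; edgeR with the block, adjusted p 0.00802, and 0.824 without the block), and replicate 2 was low in both groups. An overlapping gene on the same strand covers 62.8% of the Igf2 exon bases, so its count is uncertain.

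Ccnd1, another D-type cyclin, had 111, 131 and 210 CPM with DMSO and 184, 144 and 265 CPM with GSK-126, higher in 3 of 3 pairs. Its log2 fold change of 0.40 did not pass (SE 0.125, edgeR adjusted p 0.121, and 0.841 without the block), and 23.4% of its exon bases are shared with an opposite-strand gene. In the fit without a filter it passed at 0.0152. Ccnd2, Mycn and Igf2 were thus called and Ptch1 and Hhip were not, and the difference between these genes was not itself tested. None of the other target genes (Ccne1, Bcl2, Sfrp1, Foxm1, E2f1 and Cdk6) was called, with log2 fold changes from -0.33 for E2f1 to 0.62 for Cdk6.

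**Figure D5:**
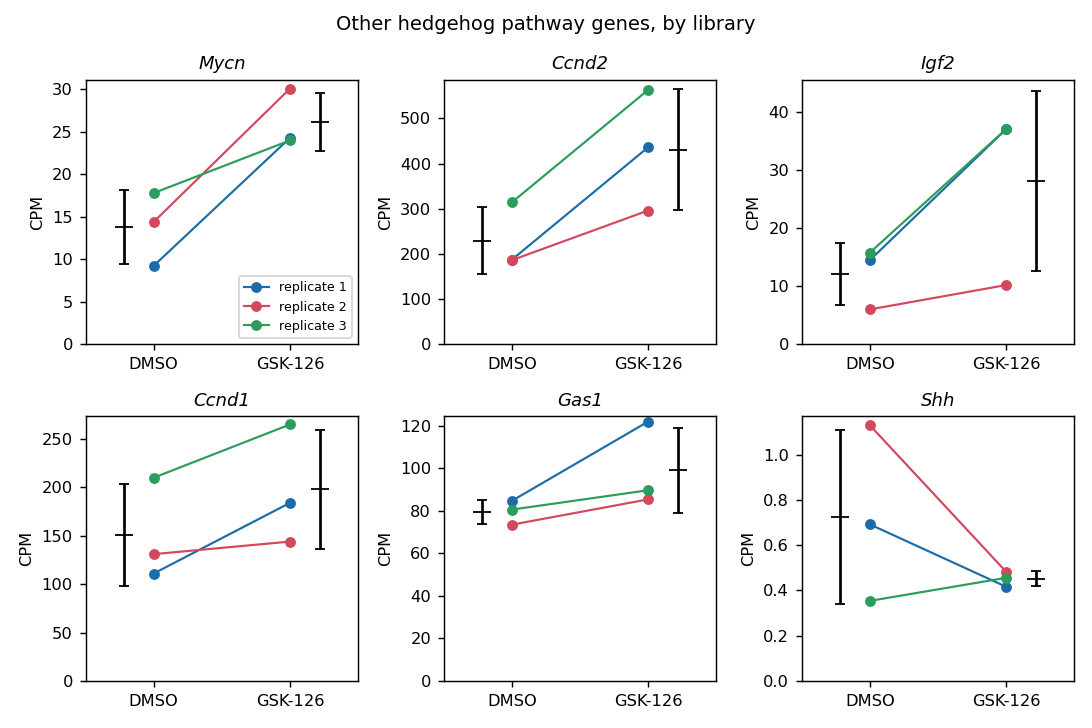
CPM (y axis, from 0) of 6 other hedgehog pathway genes in each library, drawn as for the members, with lines joining libraries of a replicate number and black bars for the mean ± SD (n = 3). Mycn, Ccnd2, Igf2, Ccnd1 and Gas1 rise in 3 of 3 pairs, and Shh lies near 0 with overlapping groups.

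The remaining roles held no called gene. Among 4 tested genes for ligand release, Hhat and Disp1 had GSK-126 libraries wholly above the DMSO libraries, and these and Scube1 are named because of their values. The groups did not overlap in 8 of the 44 tested pathway genes, against 10.9% of all genes. In Ift88, Csnk1a1 and E2f1 among them the GSK-126 libraries were the lower ones. Hhat, the acyltransferase that adds palmitate to the ligand, averaged 3.42 ± 0.533 CPM in the DMSO and 6.85 ± 1.18 CPM in the GSK-126 libraries (SD, n = 3). Its log2 fold change of 1.00 had an edgeR adjusted p of 0.0979 (0.806 without the block). Disp1, which exports the lipid-bearing ligand, averaged 16.3 ± 1.55 and 24.7 ± 1.59 CPM (SD, n = 3). Its log2 fold change of 0.60 had an edgeR adjusted p of 0.0703 (0.806 without the block). Scube1, a secreted protein of the family that helps release the ligand, lay the other way in 3 of 3 pairs, at 30.1 ± 5.85 and 20.5 ± 8.1 CPM (SD, n = 3) with overlapping groups (log2 fold change -0.61, edgeR adjusted p 0.118, 0.831 without the block). The co-receptor Gas1 had 84.7, 73.5 and 80.6 CPM with DMSO and 122, 85.4 and 89.7 CPM with GSK-126, a log2 difference of 0.30 (SE 0.116, edgeR adjusted p 0.213, and 0.825 without the block). The Gas1 groups did not overlap, and 19.9% of its exon bases are shared with an opposite-strand gene. The 10 tested cilium genes had log2 fold changes from -0.26 to 0.48, the 10 kinase and G protein genes from -0.32 to 0.27, and the 6 ubiquitin genes from -0.30 to 0.02. Of the 50 genes, 6 were not tested, and Efcab7 was listed at 0 in every library.

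The genes whose log2 CPM over the 6 libraries was most like that of each member were looked up as a description. The libraries are paired and share treatments and cell composition, and each r is among the 2 highest for that member over all genes of at least 10 CPM. Galnt15 (r = 0.998) and 2900011O08Rik (0.996) lay nearest to Boc, and Pms2 (0.997) and Igip (0.995) nearest to Ptch1. For Cdon Ints6l (0.996) is given, for Smo Pax3 (0.994) and Pcdh10 (0.992), for Gli3 Ube2l3 (0.998) and Gm20412 (0.995) and for Gli2 Acbd4 (0.993) and Appl2 (0.985). Sufu was nearest to Kif7 (0.993), itself a hedgehog gene of the cilium tip, and to Pqlc3 (0.992), and Hhip to Afg3l1 (0.991) and Commd3 (0.969). Of the genes named here for their likeness, only Galnt15 passed the test for GSK-126 (log2 fold change -0.78, edgeR adjusted p 0.00822).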

How the data were processed

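The deposited values are whole-number read counts per gene symbol, 1 table per library, which the authors made from paired-end reads of poly(A)-enriched RNA with Trimmomatic 0.38, STAR 2.7.2b (mouse GRCm38, mm10) and HTSeq over exon features, without normalization or pooling. Strand use and HTSeq's version are not given in the sources used here. The 5 HTSeq summary rows were dropped from library sizes and tests. Reads over no feature made up from 44.8% to 46.7% of fragments and reads assigned to a gene from 39.1% to 41.6%. All 55341 symbols were found in GENCODE M21, where 114 belong to more than 1 gene ID.

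Genes were filtered with filterByExpr (16343 kept) and scaled with TMM factors (0.994 to 1.01). GSK-126 was compared with DMSO with edgeR 4.0.16, quasi-likelihood F test (R 4.3.3, legacy=TRUE, robust=FALSE) with the replicate number as a block, adjusted by Benjamini-Hochberg over all genes, at a threshold of 0.05. SE is the absolute log2 fold change over the square root of F, intervals are 95%, and pair ratios use log2 CPM (prior count 2). The study's methods name DESeq2 for normalization and state no block. The block was used because the comparison was defined beforehand as paired by replicate number. As a check on the same data, deviations from the group means were correlated across genes. The correlations were 0.351, 0.503 and 0.517 within numbers 1, 2 and 3, and -0.411 to -0.0103 between numbers. Because each group was centred on its own mean, values above 0 within numbers bring values below 0 between them. The 2 sets of correlations are therefore not separate checks. The labels do not say that libraries came from separate cultures, although the methods define a culture replicate as neurons of pooled litters, so p-values measure the spread between these libraries. Alternatives were no block, DESeq2 1.42.0, its size factors in edgeR, no filter, limma 3.58.1 (voom), each replicate number left out, and each library left out without the block. No 2 libraries agreed within sampling noise (lowest chi-square per degree of freedom 9.98). Floors of 3 counts cover counting error only. The scripts were tested on simulated data.

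The members, the 50 other pathway genes and the marker lists were chosen with earlier results of these data known. The genes named were the members, the called pathway genes, the ligands, Gas1, Mycn, Ccnd1 and Ccnd2, the leading and called markers, and the 2 genes (mean of at least 10 CPM) with the highest Pearson r to each member. Results for a few genes that the rule names are not reported here. CpG and motif counts used the 250 bases before each RefSeq start.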

Additional observations from a re-analysis of the deposited data

How the results depend on the processing

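No member was called with edgeR, DESeq2 or limma under any of the 14 alternatives. The fits without the block called no gene at all, so a member could not have been called in them. DESeq2 gave no adjusted p for Hhip. Of 111 member log2 fold changes computed under the alternatives, 105 kept their sign. With 1 replicate number left out, Gli2 ran from -0.25 to 0.16 and was above 0 without replicate 2. With no replicate block and DMSO replicate 1 left out it was 0.10, and 0.22 with GSK-126 replicate 2 left out. Again with no replicate block, leaving out GSK-126 replicate 1 turned Smo to -0.03 and Gli3 to -0.17, and leaving out DMSO replicate 2 turned Gli3 to -0.10. The cause was not tested.

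Without the replicate block, the calls over all genes went from 365 higher and 232 lower to 0 and 0, and those of the other pathway genes from 3 to 0. Every GSK-126 call in the filtered edgeR fit therefore rests on the pairing; the unfiltered fit was not run without the block. Leaving out each single library without the block gave 0 calls in each case. Without a filter on low counts there were 708 genes higher and 428 lower, with 7 pathway genes higher (Mycn, Ccnd1, Ccnd2, Igf2, Cdk6, Hhat and Disp1) and 1 lower (Scube1). With the block and 1 replicate number left out, 125 to 396 genes were higher and 53 to 308 lower, fewest without replicate 2 (125 and 53) and 211 and 148 without replicate 3, and 2 to 3 pathway genes were higher. Depth limits Gli1 and the ligands, whose counts lie near the floor.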
